A study of Drosophila melanogaster with 8 samples.

Results

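The genes described here are the 8 Drosophila melanogaster genes nvd, spo, spok, sro, phm (now also written phtm), dib, sad and shd, which code for enzymes of ecdysteroid synthesis. They were taken by name from the annotation of the arrays, as 8 of the 13294 genes that the arrays carried. All 8 are described whatever their signal, but they were chosen with earlier results of these data known. Ecdysteroids are the molting and metamorphosis hormones of insects. In the larva they are made from dietary cholesterol in the prothoracic gland, a part of the ring gland that wraps around the front of the aorta close to the brain. The gland releases ecdysone, and other tissues turn it into the active hormone, which acts through the nuclear receptor pair EcR and Ultraspiracle (gene usp). Because the ring gland sits on the aorta, a dissected dorsal vessel may or may not carry it, and the labels do not mention the gland.

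RNA abundance was measured on 2-colour oligonucleotide arrays, each of which compared a pair of RNAs from wild-type larvae (yw; Canton S) of the third instar raised at 25 °C. On 4 arrays heart was set against aorta, each RNA from a pool of 10 individuals, and on another 4 arrays dorsal vessel was set against whole larva, with 5 individuals in a pool. The dorsal vessel is the tubular circulatory organ, with the heart behind and the aorta in front. The 4 replicates of a comparison are labelled as separate samples, and replicates 3 and 4 carried the dyes the other way round from replicates 1 and 2. Signals were low: a channel (1 RNA on 1 array) was read in fluorescence units (RFU), and 29.5 to 51.3% of gene oligonucleotides lay above its detection level, the 95th percentile of its negative control and empty spots (1.41 to 3.37 RFU). Between replicates, log2 ratios across genes had a correlation of r = 0.817 to 0.892 for dorsal vessel against whole larva. For heart against aorta it was r = -0.481 to 0.482, lowest between replicates 1 and 3.

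Each of the 8 genes was represented by 1 oligonucleotide, and none of these spots was marked as bad. The files name phm as CG6578, dib as CG12028, sad as CG14728, spo as CG10594, sro as CG12068 and shd as CG13478. For nvd and spok the files give older identifiers, CG40050 and CG40123, and a transcript of annotation release 4.1 but none of release 4.2. Over the 16 channels sro was above detection in 12, spok in 10, spo in 6, shd in 5, phm in 4, sad in 3, nvd in 1 and dib in 0. At the 99th percentile of the control spots the numbers were 9 for sro, 6 for spok, 4 for phm, 1 for shd and 0 for the other four. The signals of spo, sad, shd, nvd and dib therefore lay mostly within the range of spots that carry no fly gene.

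**Figure D1:**
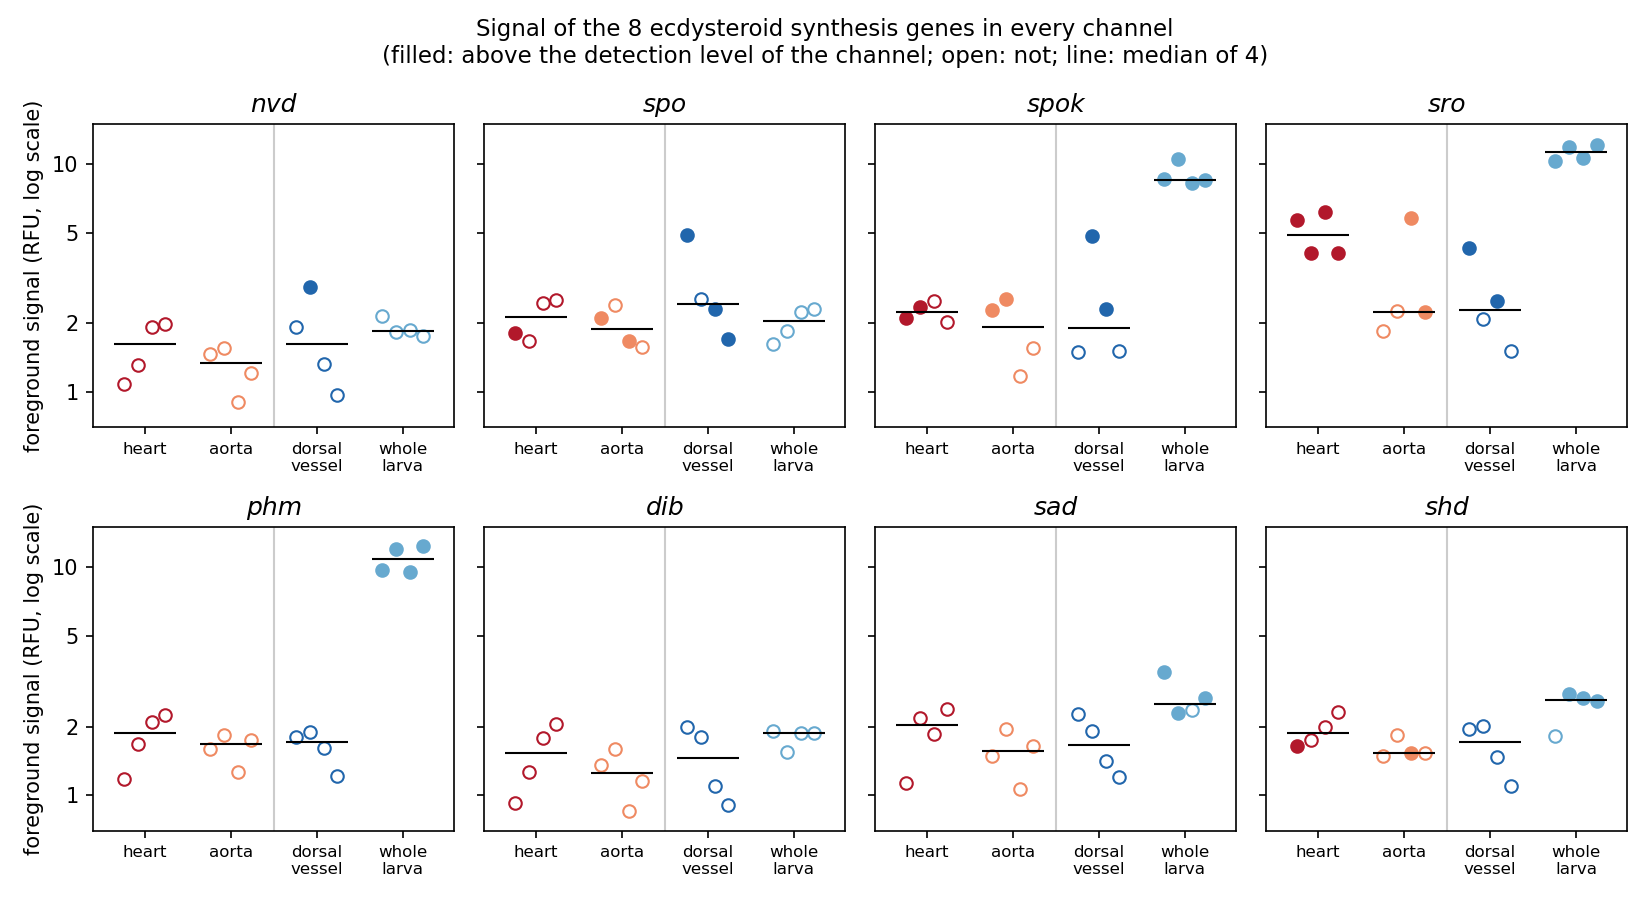
Foreground signal of the oligonucleotide of each gene in RFU (log axis) in heart, aorta, dorsal vessel and whole larva, 1 point for each of the 4 arrays in order of replicate, with the median as a line. Filled points lie above the detection level of their own channel. The whole larva points of spok, sro and phm stand at 8.27 RFU or higher, above every point of dorsal vessel, heart and aorta.

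Dorsal vessel was set against whole larva, which holds the ring gland along with every other tissue. Of the genes of ecdysone synthesis proper, spok was 2.42-fold and sro 3.16-fold lower in dorsal vessel, and phm, which was not above detection there, was at least 3.28-fold lower. The gene of the last step, shd, was slightly lower, and spo, the relative of spok, was slightly higher in dorsal vessel. Both lay close to the control spots: 0 spo channels and 1 shd channel passed their 99th percentile. The shd call was lost in 8 of the 15 alternative ways of processing in which it was tested. Of the 8 genes, 6 passed the filter on detection and were tested, 5 of these passed the test (adjusted p below 0.05, limma with Benjamini-Hochberg adjustment over all genes), 4 lower and 1 higher in dorsal vessel. Over all 6743 genes tested, 36.8% passed, 21.9% lower and 14.8% higher in dorsal vessel. The filter asked for detection on at least 2 of 4 arrays in at least 1 RNA, and phm, sad and shd met it in whole larva alone and spo in dorsal vessel alone, so the count of passing genes supports nothing by itself. In RNA from whole organs, fewer gland cells and less RNA per cell cannot be told apart.

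The first step from cholesterol is made by the Rieske-type oxygenase Neverland, the product of nvd. The nvd oligonucleotide gave 1.92, 2.88, 1.33 and 0.968 RFU in dorsal vessel, against 2.15, 1.83, 1.87 and 1.77 RFU in whole larva. It was above detection in dorsal vessel replicate 2 and in no other channel, so no difference could be tested, and its level was not measurable in whole larva either.

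The next conversions, known as the black box because their intermediates are unstable, need the short-chain dehydrogenase Shroud (gene sro) and the cytochrome P450 enzymes Spook and Spookier (genes spo and spok). Spookier is the form of the larval prothoracic gland, and Spook acts in the embryo and the adult ovary. The spok oligonucleotide gave 1.5, 4.86, 2.31 and 1.52 RFU in dorsal vessel, against 8.59, 10.5, 8.27 and 8.5 RFU in whole larva. All 4 whole larva values lay above all 4 dorsal vessel values, and spok was above detection in 2 of the 4 dorsal vessel channels. The log2 ratio of dorsal vessel over whole larva was -1.27 (SE 0.12, n = 4 arrays, adjusted p = 0.000342 in limma), negative on 4 of 4 arrays.

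The sro oligonucleotide gave 4.28, 2.09, 2.51 and 1.51 RFU in dorsal vessel, against 10.3, 11.9, 10.7 and 12.1 RFU in whole larva. The groups did not overlap, and sro too was above detection in 2 of the 4 dorsal vessel channels. Its log2 ratio was -1.66 (SE 0.17, n = 4 arrays, adjusted p = 0.00055 in limma), negative on 4 of 4 arrays.

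For spo the signals were 4.87, 2.55, 2.31 and 1.71 RFU in dorsal vessel, against 1.63, 1.85, 2.24 and 2.32 RFU in whole larva. The raw signals overlapped, but on each array the normalised ratio was positive, at 0.71, 0.45, 0.34 and 0.44 on the log2 scale. The fitted log2 ratio was 0.49 (SE 0.09, n = 4 arrays, adjusted p = 0.00637 in limma). Spo was above detection on 3 arrays in dorsal vessel and on 0 in whole larva. With whole larva set to the level of spots at the detection threshold, the mean level in dorsal vessel was 1.23-fold higher. That mean includes replicate 2, itself not above detection, so the value is not a firm lower bound. No spo channel passed the 99th percentile of control spots, and without background correction the call was lost (adjusted p = 0.0508).

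Phantom (gene phm), Disembodied (dib) and Shadow (sad) are the mitochondrial and microsomal cytochrome P450 hydroxylases that finish ecdysone. The phm oligonucleotide gave 1.80, 1.89, 1.61 and 1.21 RFU in dorsal vessel, against 9.74, 12.1, 9.57 and 12.4 RFU in whole larva. It was above detection on 0 of 4 arrays in dorsal vessel and on 4 of 4 in whole larva, so the difference is a bound. Phm was at least 3.28-fold lower in dorsal vessel, with dorsal vessel set to the level of spots at the detection threshold. The fitted log2 ratio was -1.93 (SE 0.11, n = 4 arrays, adjusted p = 4.98e-05 in limma), negative on 4 of 4 arrays.

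The dib oligonucleotide was above detection in 0 of 16 channels. It gave 2.00, 1.81, 1.10 and 0.902 RFU in dorsal vessel, against 1.91, 1.55, 1.88 and 1.88 RFU in whole larva, and was not tested. Dib was thus not measurable even in the whole larva RNA.

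The sad oligonucleotide gave 2.28, 1.91, 1.42 and 1.20 RFU in dorsal vessel, against 3.46, 2.29, 2.37 and 2.66 RFU in whole larva. Detection was passed on 0 arrays in dorsal vessel and, by a narrow margin, on 3 in whole larva. Its log2 ratio of -0.13 did not pass the test (SE 0.09, 95% interval -0.34 to 0.07, adjusted p = 0.247 in limma). It passed without background correction (-0.42, adjusted p = 0.0281) and on the log2 ratios of the authors' deposited table (-0.43, adjusted p = 0.0297).

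Shade, the product of shd, is a mitochondrial P450 enzyme that turns ecdysone into the active hormone in tissues such as fat body, gut and Malpighian tubules, outside the prothoracic gland. Its oligonucleotide gave 1.95, 2.01, 1.47 and 1.10 RFU in dorsal vessel, against 1.82, 2.77, 2.67 and 2.59 RFU in whole larva. Detection was passed on 0 arrays in dorsal vessel and on 3 in whole larva. The log2 ratio was -0.30 (SE 0.09, adjusted p = 0.0424 in limma), negative on 4 of 4 arrays. With dorsal vessel set to the level of spots at the detection threshold it was no lower than whole larva, so no fold is given. The call was lost when the 4 arrays of the comparison were fitted alone (adjusted p = 0.091), in 4 other settings, and without replicate 2, 3 or 4 (log2 ratio -0.29, -0.28 and -0.26).

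The sizes of the larger differences depended on how background was treated, since an offset added to dim signals shrinks ratios. In the authors' deposited table the mean log2 ratios for dorsal vessel over whole larva were -2.66 for phm, -2.23 for sro and -1.88 for spok. For sro and spok these are 4.68-fold and 3.69-fold lower in dorsal vessel, and for phm no fold is given from that table, since its dorsal vessel signal was not above detection. Without background correction they were -2.69, -2.22 and -1.91. The calls of phm, sro and spok held in all 17 alternatives run for each. With the dyes one way round (replicates 1 and 2) the mean log2 ratios were -1.91 for phm, -1.65 for sro and -1.33 for spok, and the other way round (replicates 3 and 4) -1.96, -1.66 and -1.21.

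**Figure D2:**
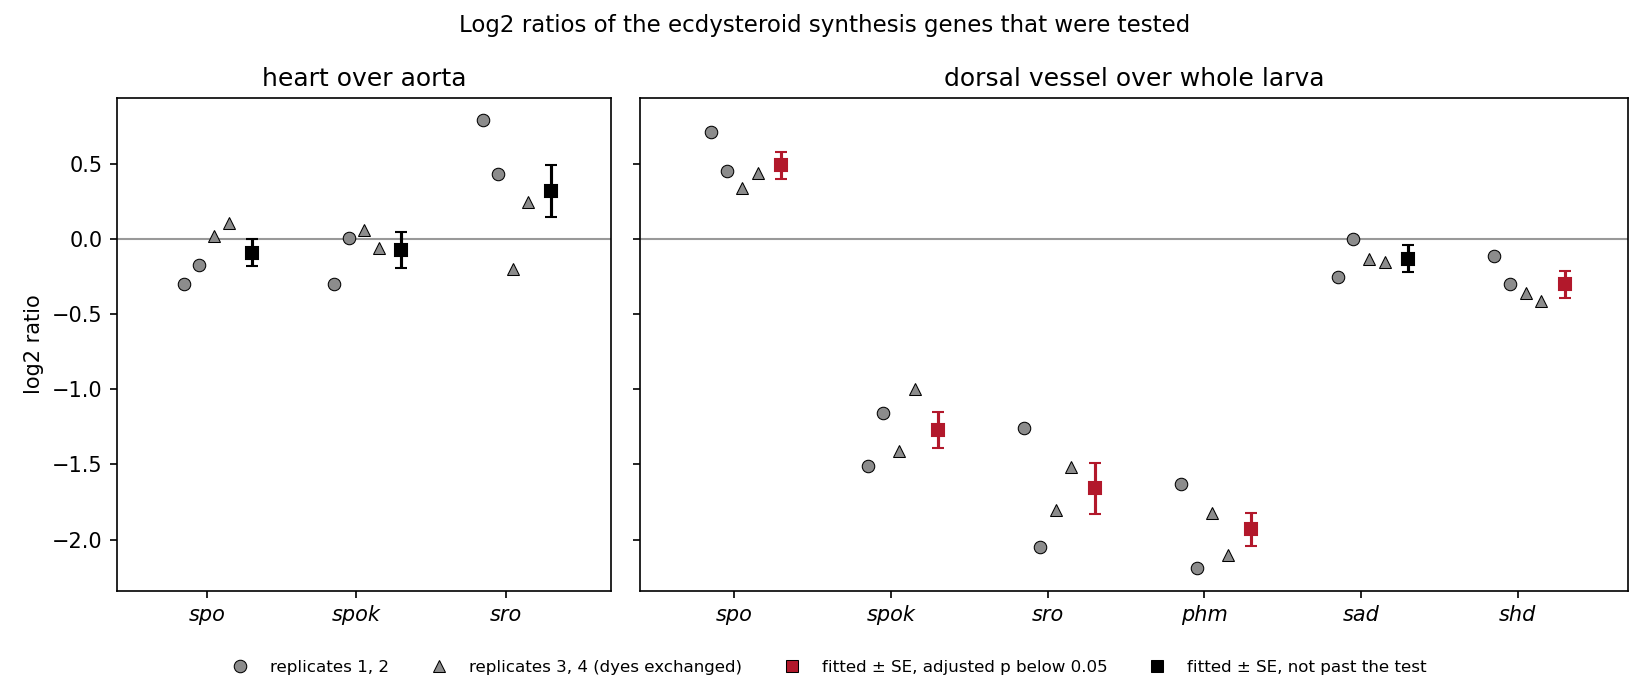
Log2 ratios of the genes that could be tested, heart over aorta (left, 3 genes) and dorsal vessel over whole larva (right, 6 genes). Grey points are the 4 arrays, with triangles for replicates 3 and 4, and squares are fitted values with their standard errors, in red where adjusted p was below 0.05. On the right, phm, sro and spok lie between -2.19 and -1.0 on all arrays and spo between 0.34 and 0.71.

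**Figure D3:**
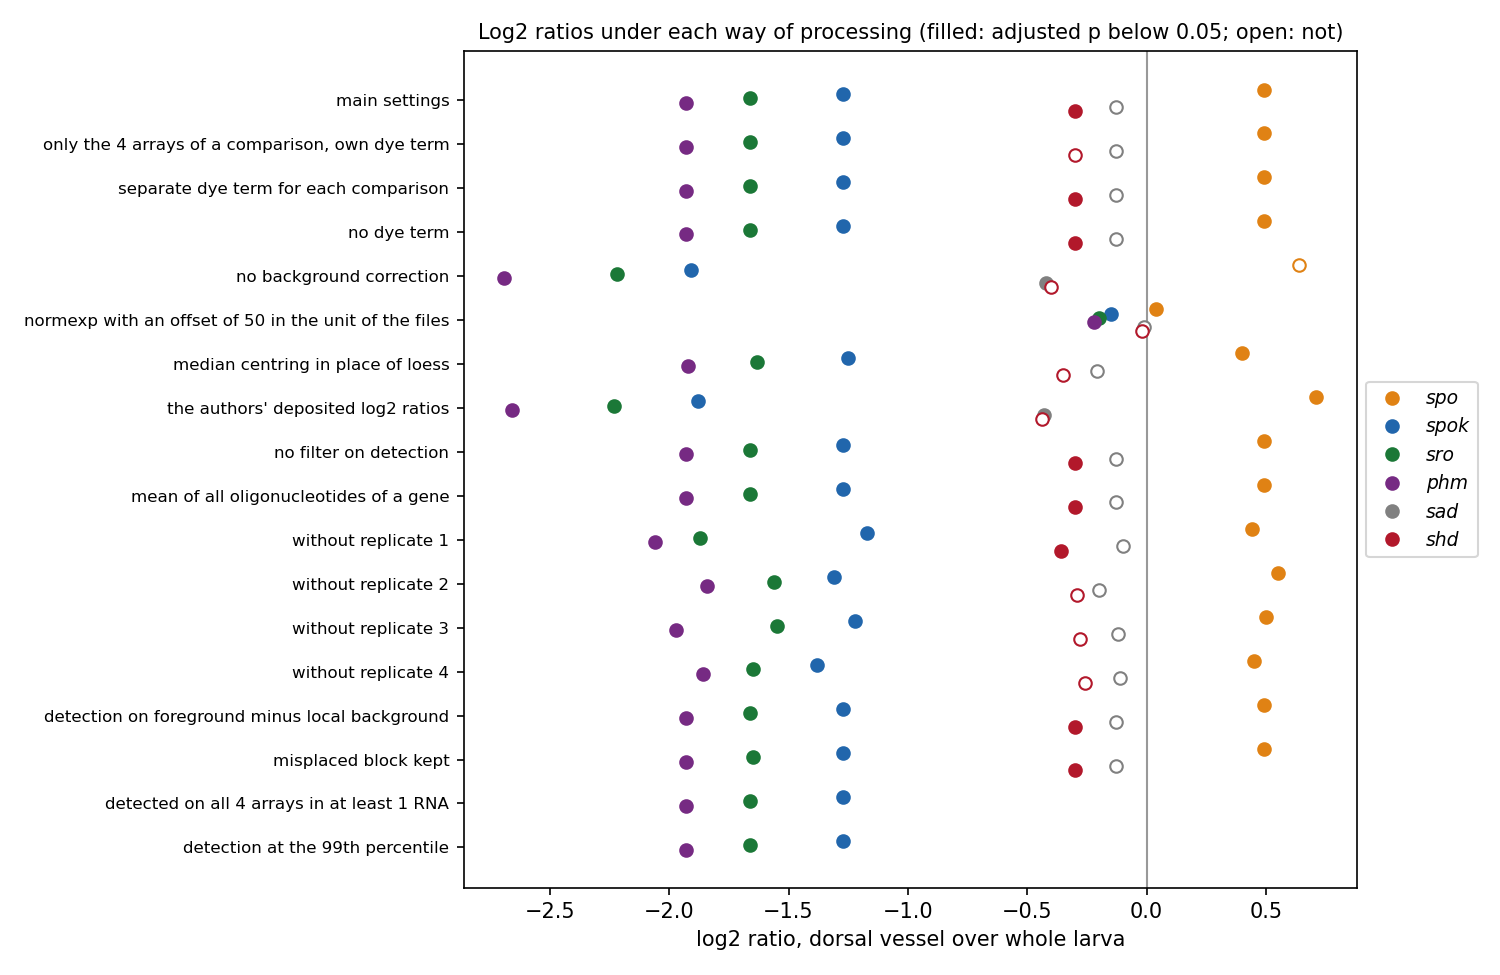
Log2 ratios (dorsal vessel over whole larva) for the 6 tested genes under each way of processing (rows), filled where adjusted p was below 0.05; a missing point means that the gene was not tested in that row. Phm, sro and spok are filled in every row, shd is open in 8 of its rows, and all ratios lie close to 0 with an offset of 50 RFU.

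Heart was then set against aorta, the part of the vessel that the ring gland surrounds. None of the synthesis genes passed the test: of 8, 3 were tested (spo, spok and sro), and 0 of these passed in limma, also at an unadjusted p below 0.05. Over all 5817 genes tested, 2.68% passed, 1.93% higher and 0.756% lower in heart (112 and 44 genes, or 86 and 9 with median centring in place of loess). The phm oligonucleotide gave 1.18, 1.67, 2.10 and 2.24 RFU in heart, against 1.59, 1.84, 1.27 and 1.75 RFU in aorta. In 0 of 8 channels of these arrays was it above detection. The same held for dib, sad and nvd, with 0 of 8 channels each, and shd was above detection in 1 heart channel and 1 aorta channel.

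The sro oligonucleotide gave 5.67, 4.08, 6.19 and 4.06 RFU in heart, against 1.86, 2.26, 5.80 and 2.25 RFU in aorta. It was above detection on 4 of 4 arrays in heart and on 2 of 4 in aorta, and the aorta value of replicate 3 lay within the range of heart. The log2 ratio of heart over aorta was 0.32 (SE 0.17, 95% interval -0.09 to 0.72, adjusted p = 0.348 in limma), with array values of 0.79, 0.43, -0.20 and 0.25. On the same arrays the median log2 ratio of 5 tested midgut and Malpighian tubule genes was 3.39, 1.45, -5.23 and -1.31, and that of 5 salivary gland genes 3.67, 2.41, -3.44 and 0.16. Replicate 3 was negative in all 3 cases, and replicate 4 was negative for the midgut and Malpighian tubule genes only. Among the other tissue lists, the median of replicate 3 was also negative for fat body (-0.6) and nervous system (-0.14). It was positive for trachea and epidermis (4.29), lymph gland and hemocyte (1.51) and cardiac genes (0.42). The part of these tissues in the sro values was not tested.

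The spok oligonucleotide gave 2.12, 2.35, 2.50 and 2.02 RFU in heart, against 2.28, 2.55, 1.18 and 1.56 RFU in aorta, with 2 of 4 channels above detection in each. Its log2 ratio was -0.07 (SE 0.12, 95% interval -0.34 to 0.20, adjusted p = 0.794 in limma), and its sign turned to positive with median centring (0.06) and without replicate 1 (0.02). The spo oligonucleotide gave 1.81, 1.67, 2.45 and 2.54 RFU in heart, against 2.12, 2.40, 1.68 and 1.58 RFU in aorta. Its log2 ratio was -0.09 (SE 0.09, 95% interval -0.29 to 0.12, adjusted p = 0.623 in limma), negative in replicates 1 and 2 and positive in replicates 3 and 4.

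As normalised channel levels on the log2 scale, which set the arrays of both comparisons on a common scale, phm averaged 6.86 ± 0.02 in heart, 6.88 ± 0.07 in aorta, 7.0 ± 0.18 in dorsal vessel and 8.93 ± 0.12 in whole larva (SD, n = 4 each). The levels of spok were 7.15 ± 0.17 in heart, 7.22 ± 0.23 in aorta, 7.42 ± 0.23 in dorsal vessel and 8.69 ± 0.19 in whole larva. Those of sro were 7.86 ± 0.13 in heart, 7.55 ± 0.41 in aorta, 7.31 ± 0.31 in dorsal vessel and 8.97 ± 0.06 in whole larva, so that heart came second. In all 3 genes whole larva was highest and did not overlap with the next RNA. How many of all genes show such a gap was not counted, so it is not read as particular to these genes. Below whole larva no pair of neighbours stood apart for spok and sro, and the levels of phm, not above detection in heart, aorta or dorsal vessel, have no order there. For spo the levels were 7.13 ± 0.11 in heart, 7.21 ± 0.08 in aorta, 7.41 ± 0.31 in dorsal vessel and 6.92 ± 0.18 in whole larva, with dorsal vessel highest and each pair of neighbours overlapping. The shd levels were 6.92 ± 0.04 in heart, above detection on 1 of 4 arrays, and 7.12 ± 0.08 in whole larva, above detection on 3 of 4. The 2 sets of values did not overlap, but they lay so close to the detection level that no order is read from them. For sad, nvd and dib all neighbours overlapped. Heart and aorta came from other pools and arrays than dorsal vessel and whole larva, so these orders are a description without a test.

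Only spok and sro were above detection in at least 8 of the 16 channels, and the genes most like them were sought among 7136 genes with values on all arrays. By Pearson correlation of the 16 channel levels, those nearest to spok were Muc96D (r = 0.964), CG14332 (r = 0.961) and obst-F (r = 0.954). Muc96D codes for a mucin and obst-F for a chitin-binding protein. Their log2 ratios for dorsal vessel over whole larva were -4.53, -4.99 and -2.54, all larger in size than that of spok. Those nearest to sro were CanB, of a regulatory subunit of calcineurin (r = 0.967), tty, of the chloride channel Tweety (r = 0.962), and Glut1, of a glucose transporter (r = 0.961), with log2 ratios of -1.96, -1.51 and -1.60. The whole larva channels of spok and sro stand apart from all others, and the 2 channels of an array share its hybridisation, so the correlations carry no test.

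Genes around the pathway were taken from lists of fly genes. Of the list for electron transfer, sterol supply and secretion, 8 of 11 genes on the array were tested, 2 were higher in dorsal vessel, 0 were lower and 6 did not pass, with a median log2 ratio of 0.13 (all genes: -0.053). The higher ones were Npc2a, of a carrier that moves sterols out of the lysosome (0.68, SE 0.14, adjusted p = 0.00961 in limma), and Fdx1, of an adrenodoxin-like ferredoxin (0.64, SE 0.20, adjusted p = 0.04). Fdx1 lost its call in 7 alternatives, among them without replicate 2, 3 or 4. Npc1a, whose product supplies sterol to the prothoracic gland together with that of Npc2a, was at 0.17 (SE 0.11, adjusted p = 0.23). In heart against aorta 0 of 8 passed in limma, also at an unadjusted p below 0.05.

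Of the regulators of the prothoracic gland, 10 of 21 were tested in dorsal vessel against whole larva, 4 were lower, 1 was higher and 5 did not pass, with a median of -0.22. Ventral veins lacking (gene vvl), a POU transcription factor needed for expression of the synthesis genes in the gland and active in trachea and brain as well, was at -2.16 (SE 0.22, adjusted p = 0.000518 in limma), and was above detection on 0 of 4 arrays in dorsal vessel and 4 of 4 in whole larva. The zinc finger gene woc was at -0.45 (SE 0.10, adjusted p = 0.0151; 0.0621 without replicate 2 and 0.0576 without replicate 4) and the ecdysone-induced transcription factor gene br at -0.98 (SE 0.20, adjusted p = 0.00968). Torso, the receptor of the prothoracicotropic hormone (gene tor), was above detection in 0 of 16 channels. With median centring 1 regulator was lower, vvl, and 0 were higher. In heart against aorta 0 of 8 tested regulators passed, also at an unadjusted p below 0.05.

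Of 7 genes of the other ring gland parts, 4 were tested in dorsal vessel against whole larva, 1 was higher and 3 did not pass, with a median of 0.07. The adipokinetic hormone gene Akh of the corpora cardiaca was above detection on 0 of 4 arrays in dorsal vessel and 2 of 4 in whole larva, with a log2 ratio of 0.06 (SE 0.09, adjusted p = 0.606 in limma). In heart Akh was above detection on 4 of 4 arrays and in aorta on 3 of 4, with a log2 ratio of heart over aorta of 0.22 (SE 0.09, adjusted p = 0.232 in limma). Its array values were -0.12 and 0.04 in replicates 1 and 2, and 0.52 and 0.43 in replicates 3 and 4. Of the 4 genes of these parts tested in heart against aorta, 0 passed. At an unadjusted p below 0.05 in limma, 1 was higher and 1 was lower in heart. The juvenile hormone methyltransferase gene jhamt of the corpus allatum was above detection in 0 of 16 channels. Hmgs, of an early step of the mevalonate pathway that many tissues use, was higher in dorsal vessel at 0.63 (SE 0.12, adjusted p = 0.00722), above detection on 4 of 4 arrays there and on 0 of 4 in whole larva; with median centring it missed the test (adjusted p = 0.0535).

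On the side of hormone breakdown and response, Cyp18a1, a P450 enzyme that inactivates ecdysteroids, was at -1.44 in dorsal vessel over whole larva (SE 0.27, adjusted p = 0.00741 in limma), with array values of 0.05, -1.71, -1.78 and -2.34. Of 23 receptor and response genes, 14 were tested, 8 were lower in dorsal vessel, 0 were higher and 6 did not pass, with a median of -0.54. The receptor gene EcR was at -0.49 (SE 0.10, adjusted p = 0.0113), the nuclear receptor gene Hr39 at -0.98 (SE 0.14, adjusted p = 0.00212) and ImpL2, of a secreted protein that binds insulin-like peptides, at -2.42 (SE 0.22, adjusted p = 0.000312). With median centring 3 of the 14 were lower, and EcR and br, which stand in both lists, missed the test (adjusted p = 0.0981 and 0.21). EcR also missed it without replicate 2 (adjusted p = 0.0583), and br with the mean of its oligonucleotides (-0.44, adjusted p = 0.0814). With that mean in place of the brightest oligonucleotide, ImpL2 was at -1.43, Cyp18a1 at -0.71 and Hr39 at -0.40, and these 3 still passed. ImpL2 was also the 1 gene of 10 tested that passed for heart over aorta, at 1.40 (SE 0.22, adjusted p = 0.0253 in limma). Its array values were 0.1, 1.45, 2.37 and 1.68. In several settings ImpL2 did not pass, with a highest adjusted p of 0.0936 in limma. Among them were the 4 arrays fitted alone (adjusted p = 0.0901) and the fits without replicate 2, 3 or 4 (adjusted p = 0.0863, 0.0705 and 0.0637). The usp oligonucleotide lay in a print block left out of the fits and has no ratio here.

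**Figure D4:**
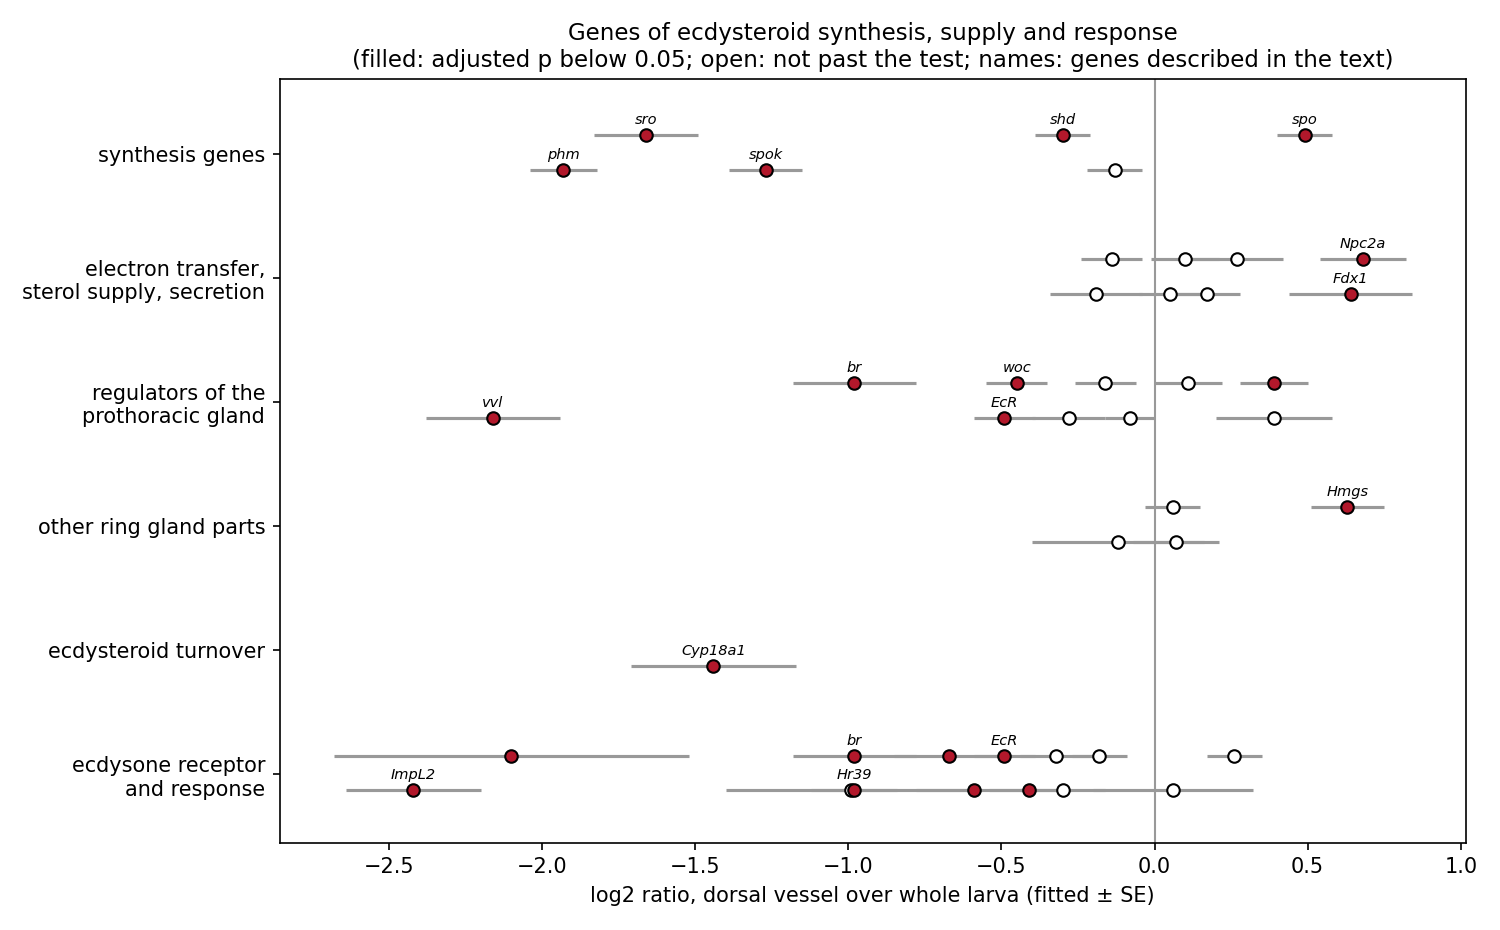
Fitted log2 ratios (dorsal vessel over whole larva) with standard errors for every tested gene of the lists for ecdysteroid synthesis, supply, regulation, other ring gland parts, turnover and response (rows). Filled points had adjusted p below 0.05. Among the synthesis genes phm, sro and spok lie at -1.93, -1.66 and -1.27, and in the supply row no filled point lies to the left of 0.

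Markers of other tissues also differed between dorsal vessel and whole larva. All 5 tested fat body genes were lower in dorsal vessel (median log2 ratio -4.85, Lsp2 -5.36), as were all 5 of salivary gland (-5.31, Sgs8 -5.31), all 5 of trachea and epidermis (-5.05, pio -2.26), 4 of 5 of midgut and Malpighian tubule (-3.84, Irk3 -1.36) and all 5 of the nervous system (-0.72, Syt1 -1.20). Of 7 trachea and epidermis genes on the array, 5 were tested. Those other than pio code for larval cuticle proteins, and the other tracheal genes of the list were not tested. Of 8 tested cardiac genes 4 were higher in dorsal vessel, among them the transcription factor gene Hand (5.58, SE 0.33, adjusted p = 4.91e-05 in limma), and 2 were lower, the nuclear receptor gene svp (-2.19, adjusted p = 0.000828) and the muscle myosin gene Mhc (-1.86, adjusted p = 0.00432, but -0.87 and 0.0725 on the ratios of the authors' deposited table). Of 8 tested lymph gland and hemocyte genes 2 were higher and 1 was lower, the crystal cell gene PPO2 (-0.57, but 0.06 with median centring). No sequence of an oligonucleotide was at hand, so cross-hybridisation between related P450 genes was not tested.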

How the data were processed

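All 8 arrays were assigned to comparison, replicate and dyes from their titles and channel labels. Per the labels, RNA was amplified over 2 rounds from an oligo(dT) primer before labelling. The spot intensity values, per the file headers, are foreground and local background in RFU for both dyes. The log2 ratios of the authors' deposited value table were normalised by the authors; limma is the tool in the submitters' processing notes, with no version given. They run as aorta over heart and as dorsal vessel over whole larva, and were turned to heart over aorta here.

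Intensities were scaled by 36.9 to a 16-bit range, corrected by normexp with an offset of 50 (1.35 RFU) and normalised by loess (span 0.3, 4 iterations; limma 3.58.1, R 4.3.3), with control and marked spots at weight 0. Channel levels come after Aquantile scaling. The brightest oligonucleotide stood for a gene. RefSeq's locus tags gave the symbol of 12632 of the 14444 gene oligonucleotides and its older identifiers that of 1180; 632 kept the name in the files. A print block of 656 spots was left out on all arrays, because on 3 of them its signals did not match its position (median r with other arrays -0.024 to 0.149, against 0.929 to 0.94). It holds no synthesis gene.

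A gene was tested if above detection on 2 of 4 arrays in at least 1 RNA. All 8 arrays were fitted together with 1 coefficient for each comparison and 1 shared dye coefficient, though the dye effects of the 2 sets of arrays had a rho of only 0.0659 across genes. Fits were run on simulated data, but these were built with that shared dye coefficient, so they cannot test it. Within each comparison, p-values over all tested genes were adjusted by Benjamini-Hochberg (threshold 0.05). Nothing says that pools came from separate crosses, so p-values measure the spread between these pools. The spread of a gene was taken from all 8 arrays, those of the other comparison included. With the 4 dorsal vessel arrays fitted alone in limma, SEs were 0.15 for phm, 0.14 for spok, 0.17 for sro and 0.12 for spo. Adjusted p was then 0.000561, 0.0019, 0.00156 and 0.0269. The bound for an undetected RNA took, per array, the higher of its own level and the median level of spots within 5% of the detection level.

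The 8 genes and the lists were chosen with earlier results of these data known. Genes named from the lists were up to 4 per list by smallest adjusted p among those below 0.05, all given for the pathway lists and the first in order for tissue markers (for cardiac also svp and Mhc), plus Akh, jhamt, tor, EcR, usp and Npc1a, and the 3 genes nearest in level to spok and sro.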

Additional observations from a re-analysis of the deposited data

Results flagged for a closer look

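Of 41 sets of 4 values looked at (the levels of each synthesis gene in each RNA, and the array ratios), 3 had 1 value far from the others, where chance marks about 5% of sets. The level of dib in whole larva was 6.54 (log2) in replicate 3, against 6.84 to 6.90 in the other replicates. The level of sad in heart was 7.24 in replicate 2, against 6.89 to 6.91 in the others. The level of shd in heart was 6.99 in replicate 1, against 6.89 to 6.90 in the others. None of the 3 enters a ratio that passed the test.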

How the results depend on the processing

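With every alternative run, phm, sro and spok kept their direction and their call in dorsal vessel over whole larva (17 alternatives each, log2 ratios -2.69 to -0.22, -2.23 to -0.20 and -1.91 to -0.15). The values nearest 0 come from an offset of 50 RFU, far above the signals, which shrinks every ratio by construction. Spo kept its call in 14 of 15 alternatives, missing it without background correction (0.64). Sad passed without background correction (-0.42) and on the deposited ratios (-0.43). Shd missed the test with 4 arrays alone (-0.30), no background correction (-0.40), the offset of 50 RFU (-0.02), median centring (-0.35) and the deposited ratios (-0.44), and with 1 replicate left out ran from -0.36 to -0.26. In heart over aorta, spok turned to 0.06 with median centring and to 0.02 without replicate 1 (other replicates left out: down to -0.12), and no synthesis gene passed in any alternative. With median centring, Akh and PPO2 in dorsal vessel over whole larva turned to -0.01 and 0.06.

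The number of genes past the test for heart over aorta, 156, was 8 with the 4 arrays alone, 475 with a separate dye term for each comparison, 269 with detection on all 4 arrays, 95 with median centring, 91 with no detection filter, 68 with the offset of 50 RFU and 36 to 85 with 1 replicate left out. For dorsal vessel over whole larva, 2480, it was 1356 to 2141 with 1 replicate left out, and within 1.5 times otherwise. The cause was not tested. Of 488 alternatives for the other genes named, 31 lost a call and 2 changed sign. The median of all genes, -0.053 for dorsal vessel over whole larva, was -0.158 without background correction, and that of heart over aorta, -0.004, was 0.152 with median centring, where 90.5% of calls were higher in heart, against 71.8%. Quantile normalisation moved 1 of 32 levels by more than its SD (sro in whole larva, 8.83).

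A pair of alternatives was chosen after seeing the data, detection on foreground minus local background and keeping the misplaced block. The first raised the channels above detection to 13 for spo and 13 for spok, 16 for sro and 5 for phm, and took nvd to 0. Detection by local background plus its deviation was not run, since the columns read give no such deviation. No paired analysis was possible because the ratio within an array already pairs the 2 RNAs of a replicate. With 1 oligonucleotide a gene and signals close to the control spots, the levels of spo, sad, shd, nvd and dib are little more than bounds, and 4 arrays a comparison limit the precision.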
